A study of Mus musculus with 36 samples.

Results

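The immediate response to type I interferon was measured in newly made RNA of mouse NIH-3T3, a fibroblast cell line derived from embryos. It rests on 6 of the 36 arrays of the series, chosen by their labels: 3 arrays of cells given IFN alpha for 30 min and 3 arrays of mock cells, both labelled with 4-thiouridine during those same 30 min. Labelling began when medium with 500 µM 4-thiouridine (4sU) was added. The IFN alpha group received 100 U/ml IFN alpha at that moment, and the mock group received 4sU without interferon. 4sU is a nucleoside that cells build into RNA as they make it, and the labelled RNA was separated from older RNA before hybridisation to a 3′ expression array. The mock cells therefore share the 4sU and the change of medium. A set of 3 arrays with 100 U/ml IFN gamma over the same 30 min, and the IFN alpha and mock arrays labelled from 30 to 60 min and from 150 to 180 min, served for comparison. Each group's arrays are numbered 1 to 3, with no statement of whether they come from different cultures. The p-values therefore reflect the spread within groups, pooled over all 36 arrays of the series, and that spread may be technical. The subtype of the IFN alpha is not given in the labels.

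Type I interferon binds the receptor made of IFNAR1 and IFNAR2, and the Janus kinases JAK1 and TYK2 then signal to the nucleus. The complex ISGF3, which holds STAT2 and IRF9, binds the interferon-stimulated response element (ISRE) in the promoters of antiviral genes. The main route of IFN gamma uses a different element called GAS. Fibroblasts respond to both interferons and are a standard model for the antiviral state.

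Values are deposited log2 expression values, and a difference of 1 is a 2-fold change in newly made RNA. The 9549 genes tested are those with a value over 4 in at least 3 of the 36 arrays. Each is represented by its brightest probe set, the one with the highest mean over all 36 arrays. On the 9 first-window arrays 19346 to 19542 probe sets were over 4, and arrays of 1 group correlated at 0.988 to 0.995. Fibroblast markers had a median of 10.95 over 17 genes, led by Col1a2 at 13.07. Of 12 macrophage and leukocyte markers only Cd14 passed the filter, at 6.71, and their median was 2.61. None of 8 epithelial and none of 8 endothelial markers passed, with Krt5 at 3.12 and Tek at 2.48 the brightest. Of 9 adipocyte and muscle markers only Lpl, at 8.49, had a mean over 4. In bulk RNA, fewer cells responding and less new RNA per cell cannot be told apart.

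Within the first 30 min of IFN alpha, new RNA of 36 of the 9549 genes rose, which is 0.377%, and that of 0 genes fell (0%), by limma with Benjamini-Hochberg adjustment over all genes. At an unadjusted p under 0.05 there were 101 higher and 36 lower genes. Together they made up less than a share of 0.05 of the 9549, the share that well-sized errors give when nothing differs. Median standard deviations within groups were 0.127 to 0.158 in the 3 first-window groups and 0.393 in the mock group labelled from 0 to 60 min. Errors pooled over all 36 arrays may thus be too wide for this window, and genes not called are not shown to be unchanged. The median gene differed by -0.03; GCRMA as usually run brings arrays to a common distribution, so this value says nothing of a shift common to all genes. The rises were large: 35 of the 36 exceeded 1 on the log2 scale, 22 exceeded 2 and 4 exceeded 4, with a median of 2.15 among genes chosen by this same test. In all 36 the 3 IFN alpha arrays lay above the 3 mock arrays, as they did in 405 of all tested genes (4.24%). In 16 of the 36 the mock mean was under 4, close to the arrays' background, so the size of those rises depends on how background was subtracted. Such genes may have passed the filter through arrays with interferon, so the counts and medians of the gene lists given here describe the genes that passed and not every member. The number of genes called depended on how array numbers were treated. Arrays with the same number deviated together in this window, and the fit with the number as a block on the 9 first-window arrays called 76 higher (0.796%) and 5 lower (0.0524%), with all 36 among them. The same 9 arrays without the block gave 46 higher genes (0.482%), of which 34 were shared with the 36; Ifi35 and Usp18 were not. Without IFN alpha array 1 the count was 25, and without any other of the 6 arrays it was 29 to 36.

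**Figure D1:**
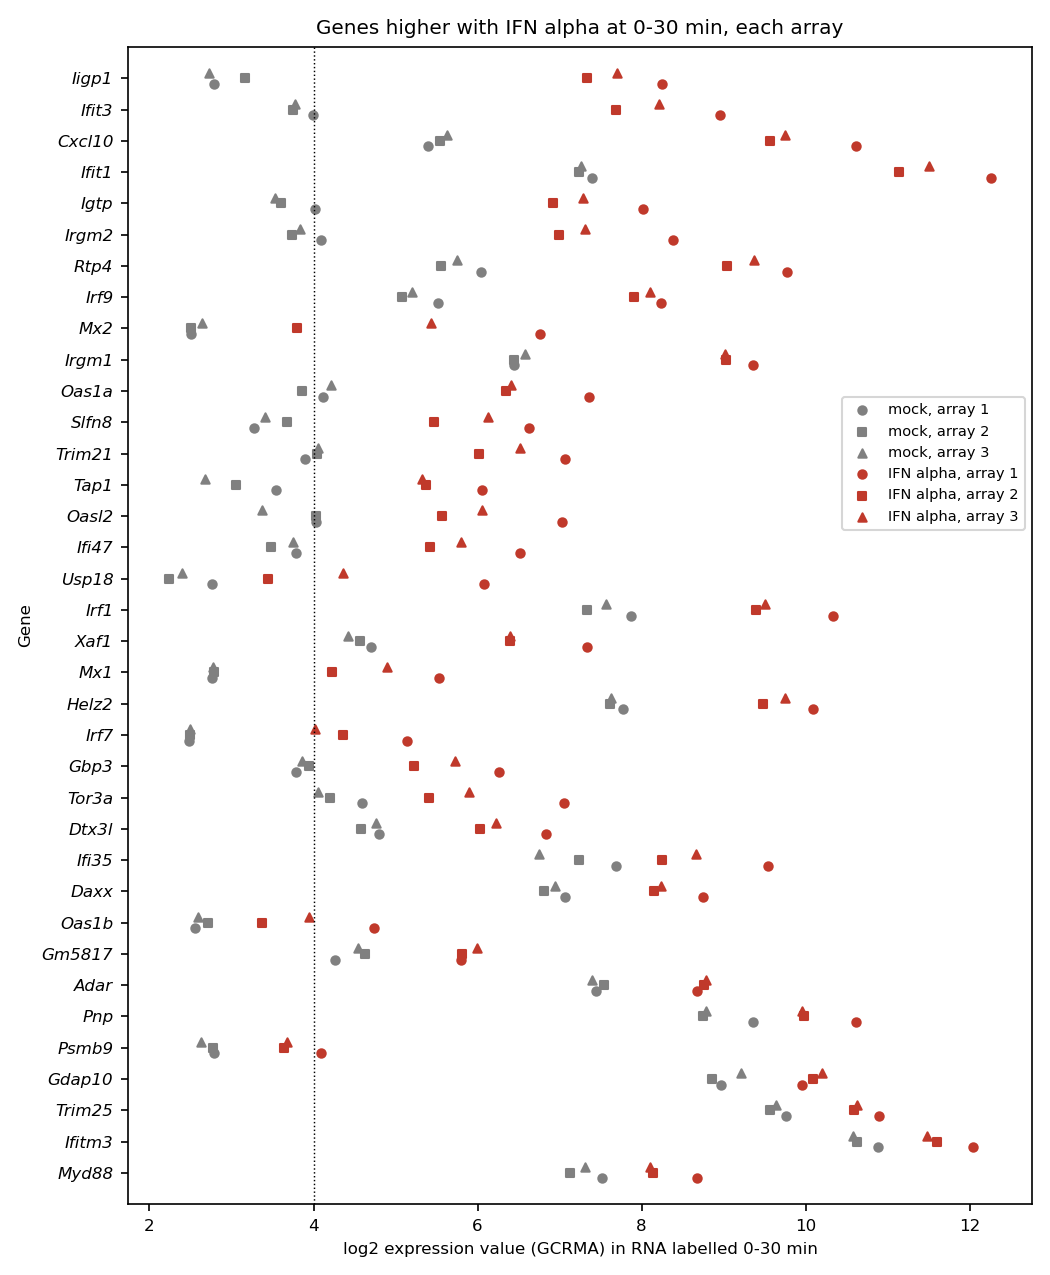
Log2 expression (x axis) of the 36 genes that rose within 30 min of IFN alpha (y axis, ordered by difference), with 1 point for each of the 3 mock and 3 IFN alpha arrays and a dotted line at the filter value of 4. All 3 IFN alpha points lie right of the 3 mock points in every row, and IFN alpha array 1 is the rightmost in 33 of the 36.

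The 3 IFN alpha arrays did not carry the response equally. Array 1 was the highest of the 3 in 33 of the 36 genes and in 48.5% of all genes, and array 2 was the lowest in 27 of the 36. The median rise over the mock mean was 2.77 on array 1, 1.75 on array 2 and 2.00 on array 3. The median range of the IFN alpha arrays was 0.97 in these genes and 0.30 in all genes, while the mock arrays ranged over 0.31 and 0.28. Mx2 (2.96), Usp18 (2.63) and Tor3a (1.65) ranged most widely. Adar (0.11), Gm5817 (0.18) and Gdap10 (0.25) ranged least, and in these 3 genes array 3 was the highest.

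Transcription factors of the pathway were among the first genes to move. Irf9 encodes the DNA-binding subunit of ISGF3. Its mock arrays stood at 5.52, 5.08 and 5.20 and its IFN alpha arrays at 8.23, 7.91 and 8.10. The groups lay far apart and each was tight, a rise of 2.81 ± 0.17 (SE; 7.02-fold, adjusted p = 1.17e-12 by limma). Irf1, a factor that binds ISRE-like sites, read 7.87, 7.34 and 7.57 in mock and 10.33, 9.40 and 9.51 with IFN alpha. It rose by 2.15 ± 0.19 (adjusted p = 2.93e-09 by limma). Irf7, the factor that amplifies type I interferon production, went from a bare background level of 2.48, 2.50 and 2.50 to 5.13, 4.36 and 4.02, a rise of 2.02 ± 0.28 (adjusted p = 2.88e-05 by limma). Of 12 tested genes for ISGF3 subunits and interferon regulatory factors these 3 rose, and the median of the 12 was 0.04. Stat2, which encodes a subunit of ISGF3, stood at 1.09 ± 0.42 (adjusted p = 1 by limma), with its IFN alpha arrays from 4.77 to 5.13 above its mock arrays from 3.62 to 4.12. It was called by the block on the first-window arrays (adjusted p = 0.00852 by limma), which called 4 of the 12, and with only the 6 arrays compared (0.0193). A dimmer probe set of Stat2 was called in the fit on all probe sets, at 1.56 ± 0.24 (adjusted p = 2.39e-04 by limma). None of 7 receptor and Janus kinase genes was called, with differences from -0.08 to 0.18; Tyk2 was at 0.18 ± 0.31 and Jak2 at 0.12 ± 0.16.

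Feedback inhibitors were mostly not called. Usp18, the protease that removes ISG15 and blocks IFNAR2 signalling, was the 1 of 17 tested that rose. Its mock arrays read 2.76, 2.24 and 2.40 and its IFN alpha arrays 6.08, 3.45 and 4.36. The groups did not overlap, yet IFN alpha array 1 stood far above the other two. The rise of 2.16 ± 0.50 had an adjusted p of 0.0407 by limma, and the call was lost in 5 of the 6 fits without 1 array: without mock array 1 (2.31, adjusted p = 0.0935), mock array 2 (2.05, 0.28), mock array 3 (2.13, 0.207), IFN alpha array 1 (1.44, 1) or IFN alpha array 3 (2.30, 0.0887). It was also lost in 6 of the 10 other settings that tested it. Socs1, which inhibits Janus kinases, read 4.55, 3.90 and 4.52 in mock and 5.85, 5.15 and 5.23 with IFN alpha. That difference of 1.08 ± 0.34 was not called (adjusted p = 0.625 by limma) but passed in the 9 first-window arrays, at 0.0499 without the array block and 0.00288 with it. Socs3, which inhibits cytokine receptors of the gp130 class, stood at 0.56 ± 0.15 (adjusted p = 0.148), with mock arrays from 10.73 to 10.92 and IFN alpha arrays from 11.03 to 11.63; without IFN alpha array 3 it was called, at 0.73 (adjusted p = 0.0128 by limma). The block on the first-window arrays called 3 of the 17.

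The Ifit genes encode proteins that bind foreign or uncapped RNA. Ifit3 read 4.00, 3.75 and 3.77 in mock and 8.96, 7.69 and 8.22 with IFN alpha. The rise was 4.45 ± 0.40, or 21.8-fold (adjusted p = 4.89e-09 by limma). Ifit1 started higher, at 7.40, 7.24 and 7.26, and reached 12.26, 11.14 and 11.51, a rise of 4.34 ± 0.50 (adjusted p = 7.17e-07 by limma). Ifit2, of the same gene cluster, was not called: mock arrays read 7.88, 8.32 and 8.24, IFN alpha arrays 8.45, 8.30 and 8.54, and the groups overlapped (0.29 ± 0.20, 95% interval -0.12 to 0.69). These were 2 of 8 tested genes of the Ifit and Isg15 list, and 4 of 8 with the first-window arrays alone. Ifit1bl1, at 1.23 ± 0.56, was among those gained (adjusted p = 0.0154 by limma).

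Among 5 tested genes of the 2′-5′ oligoadenylate synthetase family, whose product activates the ribonuclease RNase L, 3 rose. Oas1a read 4.11, 3.86 and 4.21 in mock and 7.36, 6.35 and 6.40 with IFN alpha (2.64 ± 0.30, adjusted p = 3.89e-07 by limma). Oasl2 differed by 2.41 ± 0.45 and Oas1b by 1.40 ± 0.30. Oas2 stayed at background on all 6 arrays, from 2.27 to 2.33. Without IFN alpha array 1 Oasl2 missed the threshold (2.00, adjusted p = 0.0994 by limma), as it did without mock array 3 (2.19, 0.0547). Oas1b missed it in 5 of 6 such fits: without mock array 1 (1.36, 0.116), mock array 2 (1.44, 0.068), mock array 3 (1.38, 0.102), IFN alpha array 1 (1.04, 0.518) or IFN alpha array 3 (1.43, 0.0709). It also missed it in 3 of the 10 other settings that tested it.

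Of 41 other antiviral genes tested, 11 rose and the median of the 41 was 0.37. Mx1 and Mx2 encode dynamin-like GTPases that trap viral components. Mx1 stood at 2.77, 2.79 and 2.78 in mock and at 5.53, 4.22 and 4.89 with IFN alpha. Mx2 stood at 2.50, 2.50 and 2.64 in mock and at 6.76, 3.80 and 5.43 with IFN alpha, the widest spread of any gene that rose. Both left a background-level baseline and their groups did not overlap. The rises were 2.10 ± 0.42 for Mx1 and 2.78 ± 0.43 for Mx2 (adjusted p = 0.00712 and 1.58e-04 by limma). After adding 16 to the unlogged values, which damps differences that start near background, Mx1 came to 1.01 and was not called, and with only the 6 arrays compared Mx2 was not called (adjusted p = 0.155). Rtp4, a chaperone that restricts flaviviruses, read 6.04, 5.56 and 5.75 in mock and 9.77, 9.04 and 9.37 with IFN alpha (3.61 ± 0.54). Helz2, a helicase and nuclear receptor coactivator, read 7.78, 7.61 and 7.63 in mock and 10.09, 9.48 and 9.75 with IFN alpha (2.10 ± 0.20, adjusted p = 1.05e-08 by limma). The others were Slfn8 (2.62 ± 0.34), a member of the Schlafen family; Xaf1 (2.14 ± 0.39), a pro-apoptotic zinc-finger protein; Tor3a (1.84 ± 0.28), a torsin ATPase; Ifi35 (1.59 ± 0.31); Daxx (1.44 ± 0.25), a chromatin and death-domain adaptor; Adar (1.28 ± 0.17), the enzyme that edits adenosines in double-stranded RNA; and Ifitm3 (1.01 ± 0.21), a membrane protein that blocks virus entry. Without IFN alpha array 1 the calls were lost for Mx1 (1.78, adjusted p = 0.165 by limma), Xaf1 (1.83, 0.0526), Ifi35 (1.23, 0.161) and Ifitm3 (0.85, 0.229). With only the 6 arrays compared Tor3a had an adjusted p of 0.111 by limma and Ifi35 of 0.139. Ifi35 also missed without mock array 3 (1.35, 0.101), and Ifitm3 without mock array 2 (0.98, 0.0763) or 3 (0.95, 0.101).

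Rsad2, which encodes the radical enzyme viperin, showed how much the estimate of spread mattered. Its mock arrays read 3.76, 4.15 and 4.14 and its IFN alpha arrays 6.98, 5.85 and 6.22. The groups were well apart, but the difference of 2.33 ± 0.59 was not called with the spread pooled over all 36 arrays (adjusted p = 0.111 by limma). It was called with the spread of the 9 first-window arrays, at 2.88e-04, and with their block, at 1.77e-04. A dimmer probe set of Rsad2 was called with the spread of all 36 arrays too, in the fit on all probe sets. That probe set rose by 2.84 ± 0.51 (adjusted p = 0.00229 by limma).

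Of 13 tested genes of the list of viral RNA and DNA sensors, Myd88 rose, which encodes the adaptor of Toll-like and interleukin-1 receptors and not a sensor. It read 7.52, 7.12 and 7.31 in mock and 8.67, 8.14 and 8.10 with IFN alpha, a rise of 0.99 ± 0.20 (adjusted p = 0.00889 by limma), the smallest of the 36. The call was lost without IFN alpha array 1 (0.81, 0.233), mock array 2 (0.89, 0.13) or mock array 3 (0.99, 0.0556), and with only the 6 arrays compared (0.0544). The RNA helicase gene Dhx58 stood at 1.02 ± 0.30, with IFN alpha arrays from 4.22 to 4.39 above mock arrays from 3.22 to 3.33, and Tlr3 at 1.00 ± 0.33; neither was called. The block on the first-window arrays called 5 of the 13, these 2 among them (0.00163 and 0.0432). Ddx58, which encodes the sensor RIG-I, was not called by its brightest probe set (0.60 ± 0.27). Another probe set of Ddx58 was called in the fit on all probe sets, at 3.13 ± 0.30 (adjusted p = 5.39e-08 by limma).

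The immunity-related GTPases, which attack the vacuoles of intracellular parasites, had 5 members that rose, of 7 tested and 8 on the array. In 6 of the 7 the mock mean was under 4, so these may have passed the filter through arrays with interferon and their number is a description. Iigp1 had the largest rise of the 9549 tested genes. It read 2.79, 3.16 and 2.72 in mock and 8.25, 7.34 and 7.69 with IFN alpha, a rise of 4.87 ± 0.36 (29.3-fold, adjusted p = 7.48e-11 by limma). Igtp read 4.02, 3.60 and 3.53 in mock and 8.02, 6.93 and 7.28 with IFN alpha (3.69 ± 0.29). Irgm2 read 4.09, 3.74 and 3.83 in mock and 8.38, 7.0 and 7.31 with IFN alpha (3.68 ± 0.24). These 2 genes are neighbours with no protein-coding gene between them, and their values ran side by side on all 6 arrays. Irgm1 rose by 2.64 ± 0.28, from mock arrays of 6.44 to 6.58 to IFN alpha arrays of 9.02 to 9.36, and Ifi47 rose by 2.25 ± 0.33. The other members, Gm12185 and Gm4951, were at -0.11 ± 0.18 and 0.18 ± 0.23. Near-identical copies within this family can share probes, so the single members are less certain than the group.

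Of 6 guanylate-binding proteins, related GTPases, Gbp3 rose: its mock arrays read 3.78, 3.95 and 3.87 and its IFN alpha arrays 6.26, 5.23 and 5.72 (1.87 ± 0.34, adjusted p = 0.00176 by limma). Without IFN alpha array 1 it was at 1.61 (adjusted p = 0.051 by limma). Gbp6 (0.99 ± 0.31), Gbp2 (0.92 ± 0.35) and Gbp7 (0.70 ± 0.35) were not called, and the block on the first-window arrays called 3 of the 6, adding Gbp2 (adjusted p = 0.00196 by limma) and Gbp6 (0.0259).

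Antigen presentation on MHC class I was represented by Tap1, a subunit of the peptide transporter, and Psmb9, a catalytic subunit of the immunoproteasome, which are adjacent genes. They were 2 of 15 tested. Tap1 read 3.54, 3.06 and 2.67 in mock and 6.06, 5.37 and 5.33 with IFN alpha (2.50 ± 0.28). Psmb9 read 2.78, 2.78 and 2.63 in mock and 4.09, 3.64 and 3.67 with IFN alpha (1.07 ± 0.21). Both began near background. Psmb9 was not called without IFN alpha array 1 (0.93, adjusted p = 0.13 by limma) or mock array 3 (1.02, 0.0601), nor after adding 16 to the unlogged values (0.41). B2m, the invariant light chain, stood at 0.55 ± 0.21. The block on the first-window arrays called 4 of the 15, B2m among them (adjusted p = 0.00102 by limma). By their brightest probe sets Tapbp (0.44), H2-D1 (0.54) and H2-K1 (0.49) were not called. Dimmer probe sets of these genes were called in the fit on all probe sets. They stood at 1.49 ± 0.31, 1.35 ± 0.19 and 1.24 ± 0.24 (adjusted p = 0.0144, 7.41e-05 and 0.00619 by limma).

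Ubiquitin and ADP-ribosylation enzymes contributed 3 genes. Trim21, an antibody receptor of the cytosol, read 3.90, 4.05 and 4.05 in mock and 7.07, 6.02 and 6.52 with IFN alpha (2.54 ± 0.26). Trim25, the ligase that acts on the sensor RIG-I, was already bright, at 9.76, 9.57 and 9.63, and reached 10.90, 10.59 and 10.63 (1.05 ± 0.14, adjusted p = 1.35e-05 by limma). They were 2 of 7 TRIM genes. Dtx3l, a ligase that works with PARP9, was 1 of 7 of its list, at 1.65 ± 0.37. Its adjusted p was 0.0258 by limma. In the 6 fits without 1 array, this value stayed under the threshold only when IFN alpha array 2 was left out. It was 0.0976 without mock array 1 (1.69), 0.188 without mock array 2 (1.58), 0.102 without mock array 3 (1.67), 0.395 without IFN alpha array 1 (1.41) and 0.0755 without IFN alpha array 3 (1.71). Of the 11 other settings 1 ended the call, the fit with no filter on low values (0.0919). With the 9 first-window arrays the adjusted p was 5.64e-04 by limma. Another probe set of Dtx3l was called too, at 2.00 ± 0.29 (adjusted p = 8.55e-05 by limma).

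Of 20 chemokines and cytokines tested, Cxcl10 was the 1 called, a chemokine that attracts T cells through CXCR3. It read 5.40, 5.54 and 5.63 in mock and 10.61, 9.56 and 9.74 with IFN alpha, a rise of 4.45 ± 0.47 (21.8-fold, adjusted p = 1.31e-07 by limma). Cxcl9, a ligand of the same receptor, was at background in both groups, from 2.31 to 2.39 in mock and from 2.30 to 2.48 with IFN alpha. Il6 stood at 1.08 ± 0.30, with mock arrays from 8.68 to 8.98 and IFN alpha arrays from 9.68 to 10.12. It was not called with all 36 arrays (adjusted p = 0.264 by limma) and was called with the 9 first-window arrays (0.00173).

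The remaining called genes lie outside the interferon lists. Gdap10 read 8.97, 8.86 and 9.21 in mock and 9.96, 10.09 and 10.20 with IFN alpha (1.07 ± 0.15, adjusted p = 3.61e-05 by limma). Pnp, purine nucleoside phosphorylase, read 9.36, 8.75 and 8.78 in mock and 10.62, 9.98 and 9.96 with IFN alpha (1.22 ± 0.22). The predicted gene Gm5817 rose by 1.39 ± 0.28, from 4.26, 4.63 and 4.54 to 5.80, 5.80 and 5.99. Pnp missed the threshold without IFN alpha array 1 (1.01, adjusted p = 0.0624 by limma). Gm5817 missed it without mock array 1 (1.28, 0.106) or IFN alpha array 3 (1.33, 0.0753).

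Genes of other rapid programmes were not called. None of 38 immediate-early genes, which growth factors and fresh medium switch on within minutes, rose or fell, and Fos read 12.31 to 12.66 in mock and 12.50 to 12.69 with IFN alpha. None of 14 NF-kB targets and none of 8 control genes was called, with list medians of -0.10 and -0.05. Actb differed by 0.10 ± 0.12. At an unadjusted p under 0.05, 36 of all genes were lower. The 5 genes lower in the blocked fit of the first-window arrays were Mns1 (-0.77), Hes1 (-0.71), Rnf113a1 (-0.59), Snai1 (-0.57) and Dlx2 (-0.32), named after their values were seen. Hes1 and Snai1 are transcriptional repressors.

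**Figure D2:**
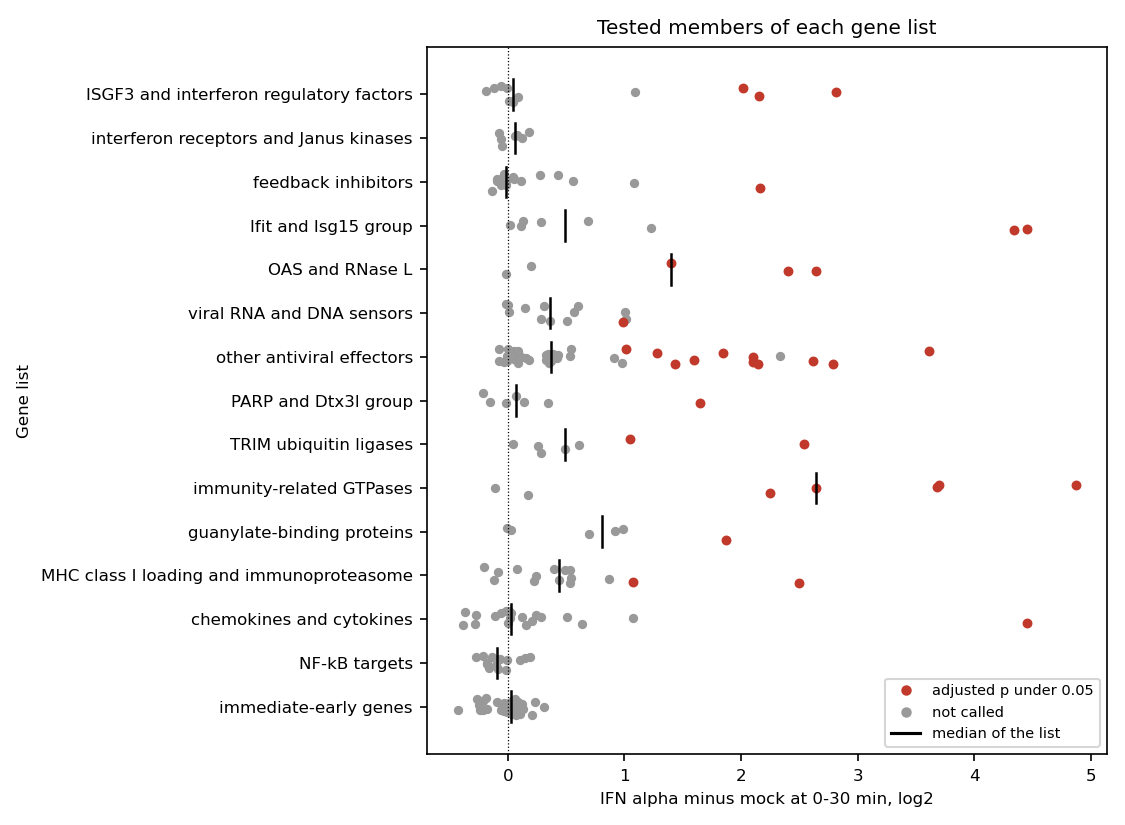
Difference between IFN alpha and mock at 0-30 min (log2, x axis) for every tested gene of each gene list (y axis), 1 point per gene, with called genes marked. Iigp1, at 4.87, is the furthest point, and the receptor, NF-kB and immediate-early lists hold no called gene.

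Promoter sequence gave a second description of the genes that rose. RefSeq promoter windows (GRCm38.p6, 250 bases before to 50 after the gene start) were matched for 28 of the 36 genes. They were searched on both strands for the ISRE core, GAAA then NN then GAAA, and for the palindromic GAS form TTCNNNGAA. The ISRE core was in 12 of the 28 (42.9%), against 283 of 7826 tested genes with a window (3.62%). The GAS form was in 8 of the 28 (28.6%), against 619 of 7826 (7.91%). Both were in 5 genes and neither in 13. Genes that rose at 30-60 min but were not called at 0-30 min held the ISRE core in 30 of 154 genes with a window (19.5%) and the GAS form in 18 (11.7%). That set was drawn by the brightest probe set and includes genes with another probe set called at 0-30 min. A match describes letters in the window and is not a measured binding site.

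**Figure D3:**
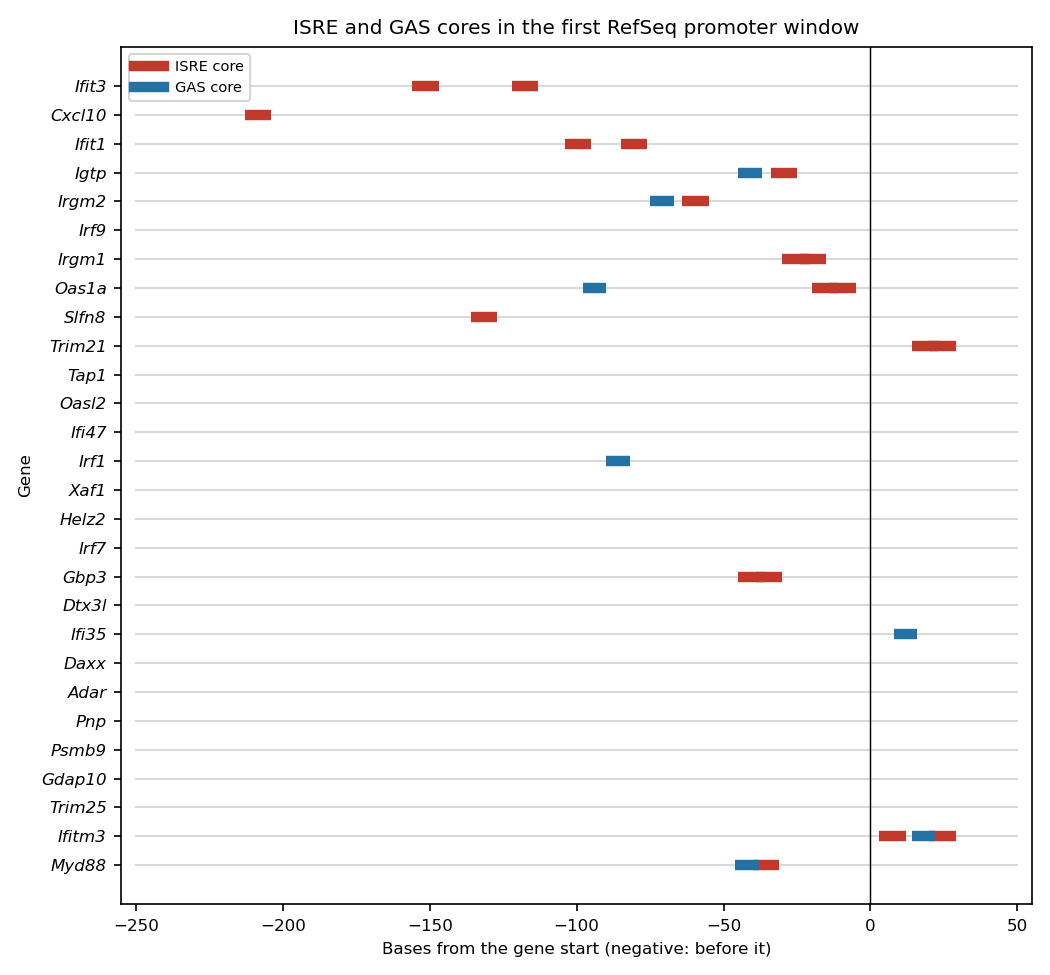
Positions of the ISRE core and the GAS form (x axis, bases from the gene start) in the first RefSeq promoter window of the 28 called genes that have one (y axis, ordered by rise). The ISRE core of Cxcl10 lies furthest upstream, and those of Trim21 and Ifitm3 lie after the start.

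The stretches below are from the promoters of 11 genes that rose, printed 5′ to 3′ on the coding strand of each gene. They were picked because their letters match the ISRE core or the GAS form, and binding to them was not measured. Capitals mark ISRE cores and GAS forms, and every stretch ends before the gene start. Ifit3 and Ifit1 each hold a pair of ISRE cores, Igtp and Irgm2 share an almost identical GAS and ISRE arrangement, Irf1 holds a GAS form alone, and in Myd88 a GAS form and an ISRE core overlap.
Ifit3, chr19:34583353-34583436, plus strand: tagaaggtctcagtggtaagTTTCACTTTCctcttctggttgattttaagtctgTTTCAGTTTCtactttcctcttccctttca
Cxcl10, chr5:92349073-92349122, minus strand: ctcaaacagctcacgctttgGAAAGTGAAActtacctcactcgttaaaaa
Ifit1, chr19:34640765-34640833, plus strand: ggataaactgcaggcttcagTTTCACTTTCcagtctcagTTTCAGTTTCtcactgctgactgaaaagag
Igtp, chr11:58199491-58199551, plus strand: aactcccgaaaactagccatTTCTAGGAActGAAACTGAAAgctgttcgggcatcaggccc
Irgm2, chr11:58214882-58214942, plus strand: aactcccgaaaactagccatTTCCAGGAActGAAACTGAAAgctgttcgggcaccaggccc
Irgm1, chr11:48871421-48871470, minus strand: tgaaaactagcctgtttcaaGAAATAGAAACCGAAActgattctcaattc
Oas1a, chr5:120907526-120907643, minus strand: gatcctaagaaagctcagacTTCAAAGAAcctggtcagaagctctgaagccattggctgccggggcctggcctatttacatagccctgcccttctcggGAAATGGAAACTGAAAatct
Slfn8, chr11:83020829-83020878, minus strand: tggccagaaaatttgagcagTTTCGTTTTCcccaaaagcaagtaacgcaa
Irf1, chr11:53769904-53769952, plus strand: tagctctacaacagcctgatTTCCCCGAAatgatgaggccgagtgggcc
Gbp3, chr3:142559979-142560034, plus strand: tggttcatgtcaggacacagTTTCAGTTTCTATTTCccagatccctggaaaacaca
Myd88, chr9:119340029-119340084, minus strand: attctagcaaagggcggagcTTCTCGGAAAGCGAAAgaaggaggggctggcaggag

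The coordinates are on GRCm38.p6.

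IFN gamma over the same 30 min was set beside IFN alpha to ask which of the genes that rose differed between the interferons. Both interferons were set against the same mock arrays, so they were compared directly, IFN alpha minus IFN gamma. Against mock, 72 genes were higher with IFN gamma (0.754%). Over all genes 18 were higher with IFN alpha (0.189%) and 50 were lower (0.524%). The same IFN alpha arrays chose the 36 genes, so counts among them are a description: 15 were higher with IFN alpha, 4 lower and 17 not called. The blocked fits called 117 genes in all with every array and 205 with the first-window arrays, against 68. Without IFN alpha array 3 the total was 44, and without IFN gamma array 1 it was 43.

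The 6 named genes furthest to the IFN alpha side included both Mx genes tested and some Ifit and Oas genes. Ifit3 was 4.26 ± 0.40 higher with IFN alpha than with IFN gamma (adjusted p = 1.69e-08 by limma), and its response to IFN gamma was 0.19 ± 0.40. Ifit1 was 3.85 ± 0.50 higher, Mx2 2.64 ± 0.43, Rtp4 2.42 ± 0.54, Mx1 2.05 ± 0.42 and Oas1a 1.98 ± 0.30. Other members were not called: Oasl2 differed by 1.69 ± 0.45 (adjusted p = 0.0978 by limma), Ifit2 by 0.08 ± 0.20 and Oas2 by -0.09 ± 0.11. Helz2 rose by 2.10 with IFN alpha and stood at 0.22 ± 0.20 with IFN gamma. The genes on the IFN gamma side were Irf1, Igtp, Irgm2 and Tap1. Irf1 rose by 5.14 ± 0.19 with IFN gamma against 2.15 ± 0.19 with IFN alpha, a difference of -2.98 ± 0.19 (adjusted p = 1.33e-12 by limma). Igtp differed by -1.57 ± 0.29, Irgm2 by -1.54 ± 0.24 and Tap1 by -1.20 ± 0.28.

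Among panel genes not called with IFN alpha, Cxcl9 (-3.34 ± 0.48), Socs3 (-2.24 ± 0.15) and Socs1 (-1.73 ± 0.34) were lower with IFN alpha than with IFN gamma. Of the 36 genes Irf9 differed least between the interferons: it rose by 2.81 ± 0.17 with IFN alpha and 2.78 ± 0.17 with IFN gamma, and the 95% interval of the difference ran from -0.32 to 0.38. Ifi47 (-0.18 ± 0.33) and Trim21 (0.49 ± 0.26) were not called either, with wider errors. Iigp1, at -1.31 ± 0.36 (adjusted p = 0.125 by limma), and Cxcl10, at 1.28 ± 0.47 (adjusted p = 0.801), were not shown to differ.

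**Figure D4:**
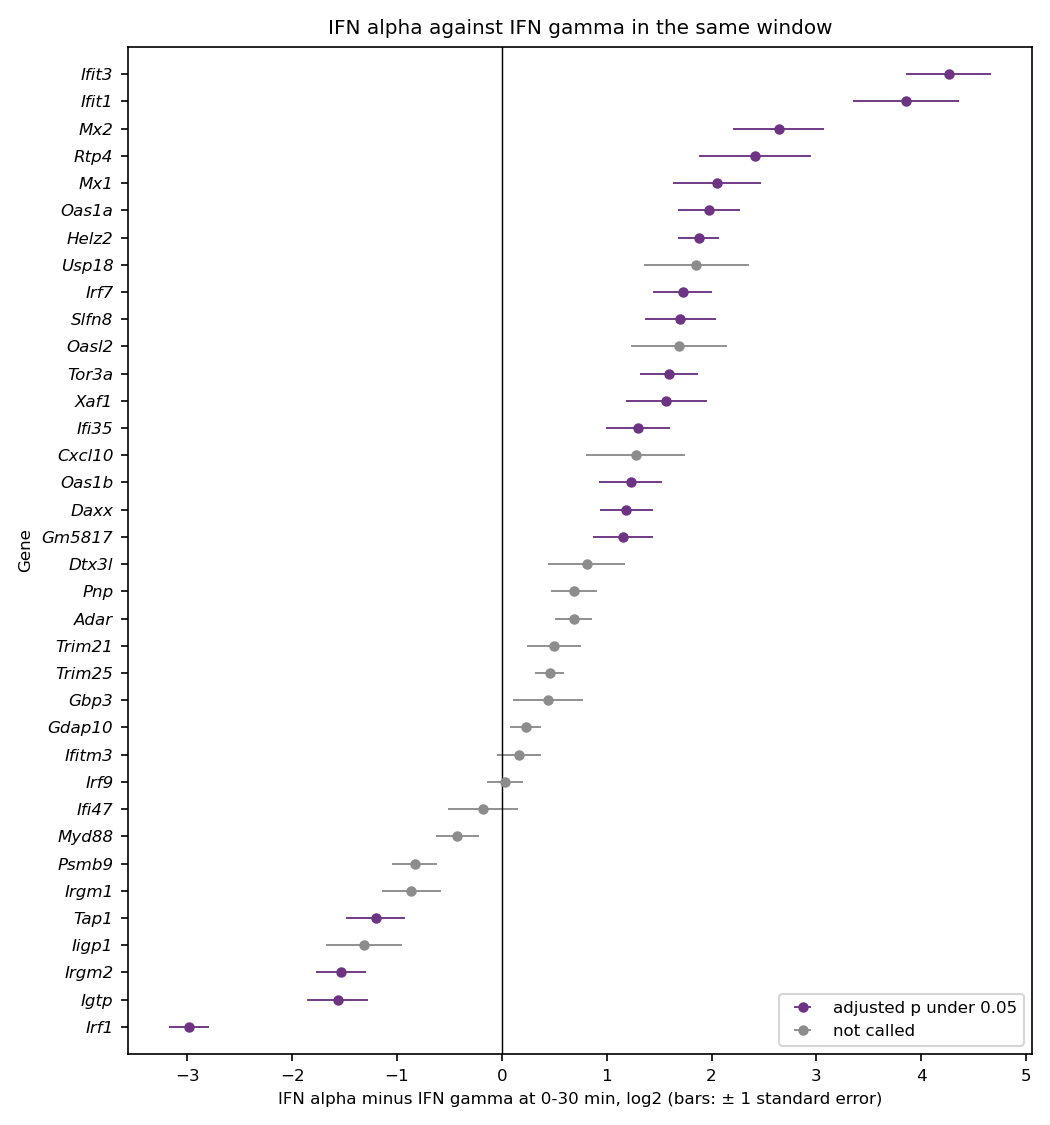
Difference between IFN alpha and IFN gamma at 0-30 min (log2, x axis; bars are 1 standard error) for the 36 genes that rose with IFN alpha (y axis). Ifit3, at 4.26, lies furthest to the IFN alpha side and Irf1, at -2.98, furthest to the IFN gamma side.

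The first-window genes were followed on separate arrays labelled later. All 36 were also higher at 30-60 min (100%, against 2.4% of all genes, and 15.7% of the 229 genes higher there). At 150-180 min 35 of 36 (97.2%) were higher, against 2.58% of all genes and 14.2% of the 246. Gm5817 was the exception, at 0.98 ± 0.28. The change in response, the 30-60 min difference minus the 0-30 min difference, was positive in 35 of the 36 and was called larger in 26, against 1.27% of all genes; 4 of all genes (0.0419%) were called smaller, none of them among the 36. The blocked fits called 212 changes in all genes with every array and 478 with the arrays of both windows, against 125.

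Ifit1 grew from 4.34 to 8.98, a change of 4.64 ± 0.71 (adjusted p = 6.79e-05 by limma). The mock mean was 7.30 at 0-30 min and 4.05 at 30-60 min, while the IFN alpha mean went from 11.63 to 13.03. The baseline that each response is taken against was thus lower in the later window. Irgm1 had mock means of 6.49 and then 4.92, and its response grew by 3.89 ± 0.39. Mx2 started from like mock means, 2.55 and then 2.53, while its IFN alpha mean went from 5.33 to 9.09, and its response grew by 3.77 ± 0.61.

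Not every gene had a larger response at 30-60 min. Oas1a stood at 2.64 ± 0.30 at 0-30 min, 1.79 ± 0.30 at 30-60 min and 6.53 ± 0.30 at 150-180 min. Its early change of -0.85 ± 0.42 was not called (95% interval -1.70 to 0.00). Both groups were lower at 30-60 min: its IFN alpha mean went from 6.70 to 4.74 and its mock mean from 4.06 to 2.94, near background. Irf7 stood at 2.02, 2.31 and 4.09 ± 0.28 in the 3 windows and Adar at 1.28, 1.51 and 2.79 ± 0.17. Neither change from the first to the second window was called. The IFN alpha mean of Adar was 9.83 at 30-60 min and 9.77 at 150-180 min, while its mock mean went from 8.31 to 6.98. Irf1 rose to 4.09 ± 0.19 at 30-60 min and was at 1.17 ± 0.19 at 150-180 min. Irf9 went from 2.81 to 3.74 and 4.22.

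Conversely, 193 genes higher at 30-60 min were not called in the first 30 min by their brightest probe set. They include 12 genes with another probe set called at 0-30 min, so not all of the 193 are later genes. Their median was 0.15 at 0-30 min, 148 of them were above 0, and in 64 every IFN alpha array lay above every mock array, which held for 4.24% of all genes. Parp14 stood at 0.35 ± 0.27 and then 5.38 ± 0.27 by its brightest probe set, although another was called at 0-30 min (2.13, adjusted p = 2.99e-06 by limma), Trim30a at 0.28 ± 0.22 and then 4.05 ± 0.22, and Cd274, which encodes the checkpoint ligand PD-L1, at 0.51 ± 0.39 and then 5.04 ± 0.39. Gbp2 went from 0.92 to 5.09 ± 0.35. Oas2 was later still, at 0.01 ± 0.11 at 30-60 min and 5.03 ± 0.11 at 150-180 min.

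**Figure D5:**
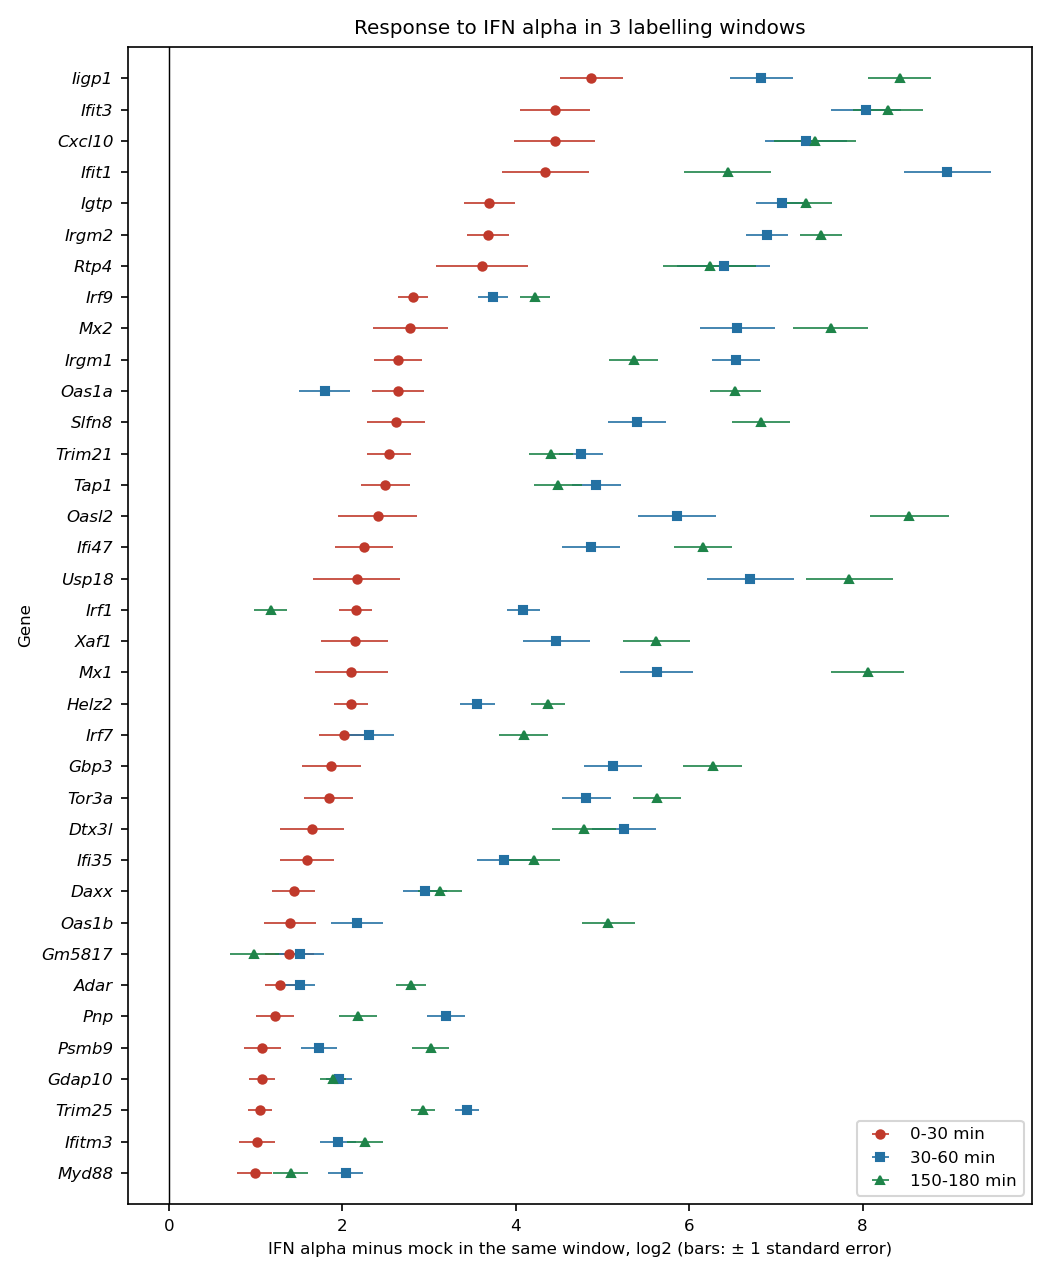
Response to IFN alpha (IFN alpha minus mock of the same labelling window, log2, x axis; bars are 1 standard error) for the 36 genes (y axis) at 0-30, 30-60 and 150-180 min. Most genes move right after the first window; Oas1a, at 1.79, lies left of its first value at 30-60 min and Irf1, at 1.17, at 150-180 min.

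Probe sets of the same gene did not always move alike. In 9 of the 36 genes 13 other probe sets passed the filter, all 13 were above 0 and 7 were called; the other probe sets of Adar were at 0.17 and 0.13. In 12 further genes a probe set that was dimmer over all 36 arrays was called where the brightest was not. On the 6 arrays compared the order could differ. The called probe set of Parp14 had means of 3.89 in mock and 6.02 with IFN alpha, against 3.41 and 3.75 for the brightest. Parp14 was called when the filter used only the arrays compared (adjusted p = 8.74e-07 by limma). Ddx58, which encodes RIG-I, was at 0.60 ± 0.27 by its brightest probe set and at 3.13 ± 0.30 by another. Parp14 was at 0.35 and 2.13, Pml, the scaffold of nuclear bodies, at 0.18 and 2.08, and Rsad2 at 2.33 and 2.84. Ly6e was at -0.01 and 1.39, and H2-K1 and H2-D1, classical MHC class I heavy chains, reached 1.24 and 1.35 by their other probe sets. These 12 genes are not among the 36.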

How the data were processed

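The authors deposited a table of log2 expression values for 36 arrays, made with GCRMA (its version is not given in the sources used here) per the submitters' processing notes. GCRMA subtracts an estimated background, so differences that start near it depend on that step. Probe sets with 1 gene symbol in the platform annotation were used (34945 of 45101; 34741 had a match in RefSeq). For each gene the probe set with the highest mean was kept if it exceeded 4 in at least 3 of 36 arrays, which left 9549 genes.

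limma 3.58.1 (lmFit, eBayes with intensity trend; R 4.3.3, data.table version 1.17.8) was fitted to 12 group means over all 36 arrays, so every group shared 1 spread per gene. Adjusted p-values are Benjamini-Hochberg over all genes, with calls under 0.05, and errors are standard errors of 3 arrays against 3. The scripts were tested on simulated data. Same-numbered first-window arrays deviated together (correlations of 0.205 to 0.651 in 9 of 9 pairs), so blocked fits are given where they change a result. The labels give the numbers but no shared culture.

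Named genes are all called genes, a panel of common interferon genes, called list members and up to 3 uncalled members of each interferon list. The largest called differences between windows or interferons were also named. Members and lists were chosen with earlier results of these data known. Alternatives were other filters, adding 16 before the log, quantile normalization, all probe sets, fewer arrays, no trend, array blocks and leaving out each array. The number of arrays limits the precision. Some items are not reported here.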

Additional observations from a re-analysis of the deposited data

Results flagged for a closer look

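The response to IFN alpha differed between 0-30 and 30-60 min in 125 of 9549 genes, by the test of the difference itself (limma, Benjamini-Hochberg adjustment). Among the genes called at 0-30 min and a fixed panel of interferon genes, the largest differences were Ifit1 at 4.64, Usp18 at 4.54, Gbp2 at 4.17, Rsad2 at 4.02, Irgm1 at 3.89 and Mx2 at 3.77 on the log2 scale, all larger at 30-60 min. Outside that set, Parp14 changed by 5.04. Both windows used separate mock arrays, and the mock means of Ifit1, Gbp2, Rsad2 and Irgm1 were lower in the later window.

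Probe sets without a single gene symbol were not used for genes, yet 19 of them rose with IFN alpha at 0-30 min in a fit on all 21874 probe sets that passed the filter. Of these, 10 carried several symbols and 9 none. The largest, probe set 1440481_at, has no symbol here. It read 5.01, 5.28 and 5.16 in mock and 10.33, 10.60 and 10.46 with IFN alpha, a rise of 5.31 ± 0.22 (adjusted p = 1.86e-16 by limma). That exceeds the rise of each of the 36 genes, and its 3 IFN alpha arrays lay closer together than those of Iigp1.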

How the results depend on the processing

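The replicate block, which pairs arrays by number, raised the counts most. For IFN alpha against mock it gave 47 genes with all arrays and 81 with the first-window arrays, against 36. For IFN alpha against IFN gamma it gave 117 and 205, against 68. For the change between windows it gave 212 and 478, against 125. Leaving out 1 array gave 25 to 36, 43 to 58 and 91 to 116 genes; the low of 43 came without IFN gamma array 1, and 44 without IFN alpha array 3. The other settings gave 33 to 47 genes for IFN alpha against mock, all within 1.5 times. With no filter 33 were higher and 2 lower, Hoxb5os and Mccc2, which did not pass the filter. Of the 36 genes, 23 kept their call in all 6 fits without 1 array and 21 in every setting; of 40 uncalled named genes 17 were called in some setting. No called gene changed sign. The sign changed in 5 uncalled genes when 1 array was left out, where the fits ran from -0.040 to 0.21 for Jak2, -0.013 to 0.16 for Fos, -0.016 to 0.072 for Cxcl9, -0.28 to 0.011 for Nmi and -0.37 to 0.0062 for Parp8. The cause was not tested. Genes near background in both groups, such as Oas2 and Cxcl9, have no measured difference below that level.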

Other observations

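Some probe sets shared by several genes rose too. A probe set annotated to Tgtp2 and Tgtp1, T-cell-specific GTPases of the immunity-related GTPase family, read 3.91, 4.06 and 3.97 in mock and 8.58, 7.46 and 7.73 with IFN alpha, a difference of 3.94. A probe set annotated to Isg15, the ubiquitin-like modifier, and to Gm9706 read 5.63, 5.39 and 5.53 in mock and 9.41, 9.06 and 9.08 with IFN alpha, a difference of 3.67. In both, the groups lay far apart. A probe set shared by Trex1, a DNA exonuclease, and Atrip differed by 2.33. These probe sets cannot be assigned to 1 of their genes.

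Some of the called genes sit close together. Of 31 called genes placed in the RefSeq gene order, 6 had another called gene within 3 protein-coding genes. The matching share over all genes was not counted, so whether this is many or few was not tested. Igtp with Irgm2, and Psmb9 with Tap1, were directly adjacent, and Ifit3 and Ifit1 had 3 protein-coding genes between them.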
